A study of Mus musculus with 36 samples.

Results

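Interferon-stimulated genes are the genes that cells switch on when they sense interferon, and 39 of them were followed through liver regeneration in young and old mice. They were a fixed list of gene symbols with established interferon inducibility, chosen with earlier results of these data known. All 39 were found among the 21955 gene symbols of each count table. All 39 also passed the filter on low counts, which left 13436 genes for testing. The livers came from C57BL/6JN mice, an inbred laboratory strain, aged 4 months (young) or 18 months (old). Each age was sampled at 6 time points labelled before, 48, 72, 96, 120 and 240, with 3 biological replicates in each of the 12 groups and 36 libraries in all. The labels give these numbers without a unit and do not describe how regeneration was started. Old mice are named as the treated group, and no transgene, drug or infection is given for any group. RNA was total liver RNA depleted of ribosomal RNA.

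Interferons are secreted proteins that bind surface receptors, which activate the kinases JAK1 and TYK2 and, through them, transcription factors. STAT2 and IRF9 are parts of a complex that binds a short promoter sequence called the interferon-stimulated response element (ISRE). Type II interferon acts mainly through another short sequence, the gamma-activated site (GAS). The induced genes encode sensors of foreign nucleic acid, transcription factors that amplify the response, and proteins that block viral replication or mark infected cells. Hepatocytes, Kupffer cells and endothelial cells of the liver all carry interferon receptors.

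Total counts per library ranged from 2328233 to 6034446, with a median of 4439170. Levels are given as CPM, a library's count of a gene relative to its total, with totals scaled by the TMM method, and 3 counts corresponded to between 0.490 and 1.29 CPM in a library. The hepatocyte markers (Alb and Ttr among them) summed to between 18672 and 31714 CPM. All 10 were present in the tables, but Ass1 had only 65 reads over all 36 libraries, at most 1.23 CPM. One feature of the libraries bears on every result. In 1 library of each of the 12 groups, the sum of Kdm5d, Uty, Ddx3y and Eif2s3y, all on the Y chromosome, lay between 177 and 321 CPM, and in the other 24 libraries it was at most 0.212 CPM. Xist, the RNA that coats the inactive X chromosome, showed the opposite split. The labels used here state no sex. The 12 libraries are called Y+ and the 24 others Y- below, and the age difference averaged over time is given for all libraries and for each kind. The comparisons of the ages at single time points are given for all libraries alone, since 1 Y+ library per group allows no test within a kind. Each group has a single Y+ library, so a difference between the kinds rests on 6 Y+ libraries of each age, taken at 6 different times.

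The promoters of 6 members are shown first because they hold the sequence through which interferon signalling is known to act on these genes. Windows of 300 bases, from 250 bases before to 50 bases after the annotated start (RefSeq, GRCm38.p6), were found for 28 of the 39 members. The ISRE core was searched on both strands as GAAANNGAAA, whose reverse complement is TTTCNNTTTC. At least 1 match was present in 17 of the 28 members (60.7%), against 3.80% of the 10169 tested genes with a window and 3.99% of all 27025 genes with one. The GAS core, TTCNNNGAA, can overlap an ISRE match and was present in 6 of the 28 members (21.4%), against 8.6% of the tested genes. A match describes these letters and is not evidence of binding. Below, 160 bases upstream of the start are written 5′ to 3′ on the gene's own strand, with ISRE core matches in capitals. The windows lie at chr4:156200819-156200978 on the minus strand (Isg15), chr19:34640729-34640888 on the plus strand (Ifit1), chr19:34583369-34583528 on the plus strand (Ifit3), chr12:26456453-26456612 on the minus strand (Rsad2), chr5:120907526-120907685 on the minus strand (Oas1a) and chr3:142559884-142560043 on the plus strand (Gbp3).
Isg15: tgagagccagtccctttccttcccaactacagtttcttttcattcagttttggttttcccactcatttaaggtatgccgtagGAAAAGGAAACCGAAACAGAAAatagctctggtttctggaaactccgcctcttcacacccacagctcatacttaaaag
Ifit1: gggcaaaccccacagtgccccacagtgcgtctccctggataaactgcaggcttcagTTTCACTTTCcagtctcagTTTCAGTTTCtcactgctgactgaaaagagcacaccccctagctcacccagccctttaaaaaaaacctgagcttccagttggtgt
Ifit3: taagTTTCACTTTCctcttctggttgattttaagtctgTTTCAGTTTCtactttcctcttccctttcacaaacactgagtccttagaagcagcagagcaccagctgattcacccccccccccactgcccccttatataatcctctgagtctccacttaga
Rsad2: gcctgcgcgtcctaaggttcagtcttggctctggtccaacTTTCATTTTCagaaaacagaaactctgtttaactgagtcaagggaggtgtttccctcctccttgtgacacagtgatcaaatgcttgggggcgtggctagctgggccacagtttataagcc
Oas1a: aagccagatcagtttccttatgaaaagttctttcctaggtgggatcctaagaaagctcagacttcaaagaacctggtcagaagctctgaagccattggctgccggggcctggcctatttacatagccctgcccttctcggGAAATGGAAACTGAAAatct
Gbp3: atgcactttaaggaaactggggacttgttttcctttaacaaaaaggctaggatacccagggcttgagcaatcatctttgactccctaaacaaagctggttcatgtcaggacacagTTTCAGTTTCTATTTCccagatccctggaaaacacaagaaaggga

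In Isg15, 3 overlapping matches formed a single run that began 78 bases before the start. Ifit1 and Ifit3, neighbours on chromosome 19, each held 2 separate matches on the opposite strand. Rsad2 held 1 match, 120 bases before the start, and Oas1a and Gbp3 each held 2 overlapping matches within 45 bases of it. Of the other members with a match, Ddx58, Ifih1 and Eif2ak2 carried it downstream of the annotated start, and Trim30a did so in 1 of its windows. Members with a window but without these letters in it were Irf7, Irf9, Herc6, Ifit2, Oasl1, Oasl2, Cmpk2, Xaf1, Ifi44, Ifi35 and Dtx3l.

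**Figure D1:**
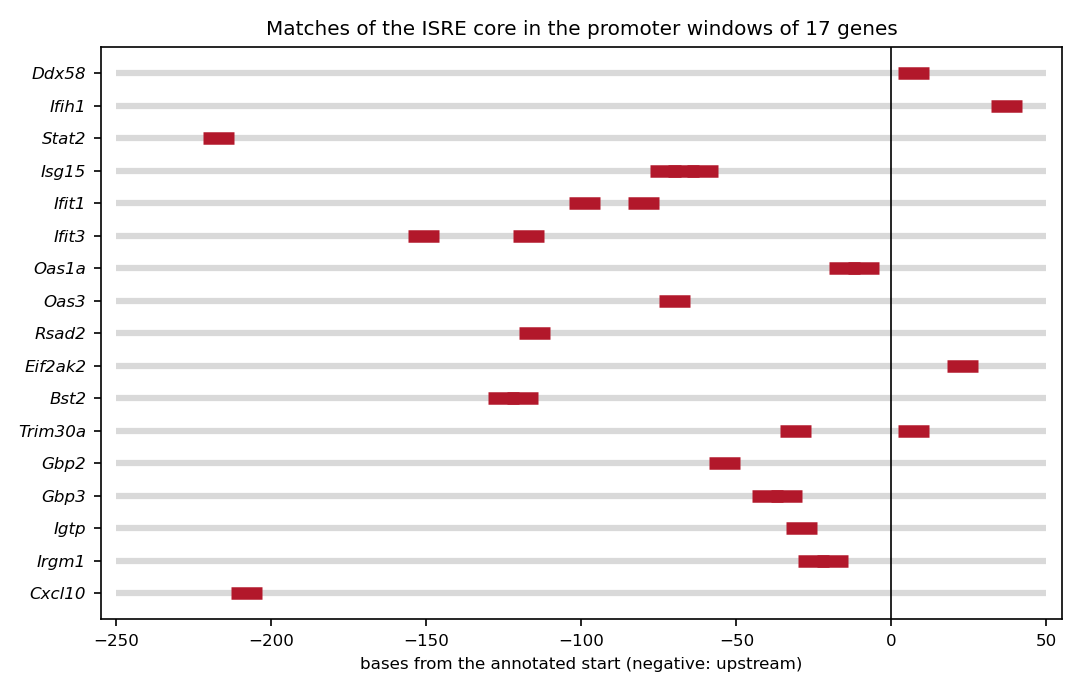
Positions of the ISRE core matches (red) in the promoter windows (grey bars) of the 17 members that hold one, in bases from the annotated start. Most matches lie upstream of the start, and those of Ddx58, Ifih1, Eif2ak2 and 1 of Trim30a lie downstream of it.

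The first comparison asked whether old livers differed from young livers, with the 6 time points averaged. None of the 39 genes was called at an adjusted p under 0.05 (edgeR's quasi-likelihood test, Benjamini-Hochberg adjustment over all genes), while 6.13% of all genes tested were. The fold changes of 34 members were positive, with a median of 0.22 on the log2 scale, and 6 members had an unadjusted p under 0.05. The members of smallest p were Oasl1, an OAS-like protein that limits Irf7 translation (log2 fold change 0.84 ± 0.26, SE, adjusted p 0.0527), and Ifi44, a cytoplasmic antiviral protein (1.06 ± 0.42, adjusted p 0.138). Oasl1 lay at the threshold and was called by DESeq2 (0.84, adjusted p 0.0154) and in 10 of the 36 fits that left out 1 library. A fit with terms for the kind of library in each age, added after the data had been seen, gives the age difference of Y- libraries alone. In that fit the value of Oasl1 was 0.0428 (adjusted p 0.953). 

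The age difference, averaged over the 6 times, depended on the kind of library. The tests by kind assume a Y+ difference constant over time. The old groups did not show this: the members' median log2 ratio of Y+ to Y- libraries was -0.10 at 48 and 1.70 at 72. Among Y+ libraries, 21 of the 39 members were higher in old livers and 0 were lower, with 2.51% of all genes called. The median log2 fold change of the 39 was 1.03, against a median near 0 for all genes (-0.00319). At 48 the old Y+ library lay below the young one for members such as Isg15 (16.4 against 22.9 CPM). For others, such as Irf7, it lay above (76.2 against 50.3 CPM). Among Y- libraries, 2 members were lower in old livers and 0 were higher, with 3.85% of all genes called. There the median of the 39 was -0.30 and 37 of them were negative. The difference between these age effects was tested directly: 15 members passed, each more positive in the Y+ libraries, where 0.35% of all genes (47 genes) passed. Those of smallest p were Ifi44 (3.40 ± 0.53, SE, adjusted p 0.0025, edgeR), Irf7, Oasl2 (2.27 ± 0.41, adjusted p 0.0124), Dhx58 (1.79 ± 0.33, adjusted p 0.0139) and Ifit3 (2.18 ± 0.42, adjusted p 0.0142). The 15 became 24 with DESeq2, 23 with no filter on low counts and 6 with only the 5 later time points. Single libraries also moved these counts. The 15 became 6 without the old Y+ library at 96, 7 without the young Y+ library at 240, 8 without the young Y+ library before, 26 without the old Y+ library at 48 and 25 without old replicate 3 at 48. The 21 became 12 without the old Y+ library at 96 or the young Y+ library at 120, and the 2 in Y- libraries became 12 without old replicate 3 at 48. That opposite age differences of interferon genes occur in the 2 kinds of library was known from earlier results of these data, so the counts describe its members and are not independent evidence of it.

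**Figure D2:**
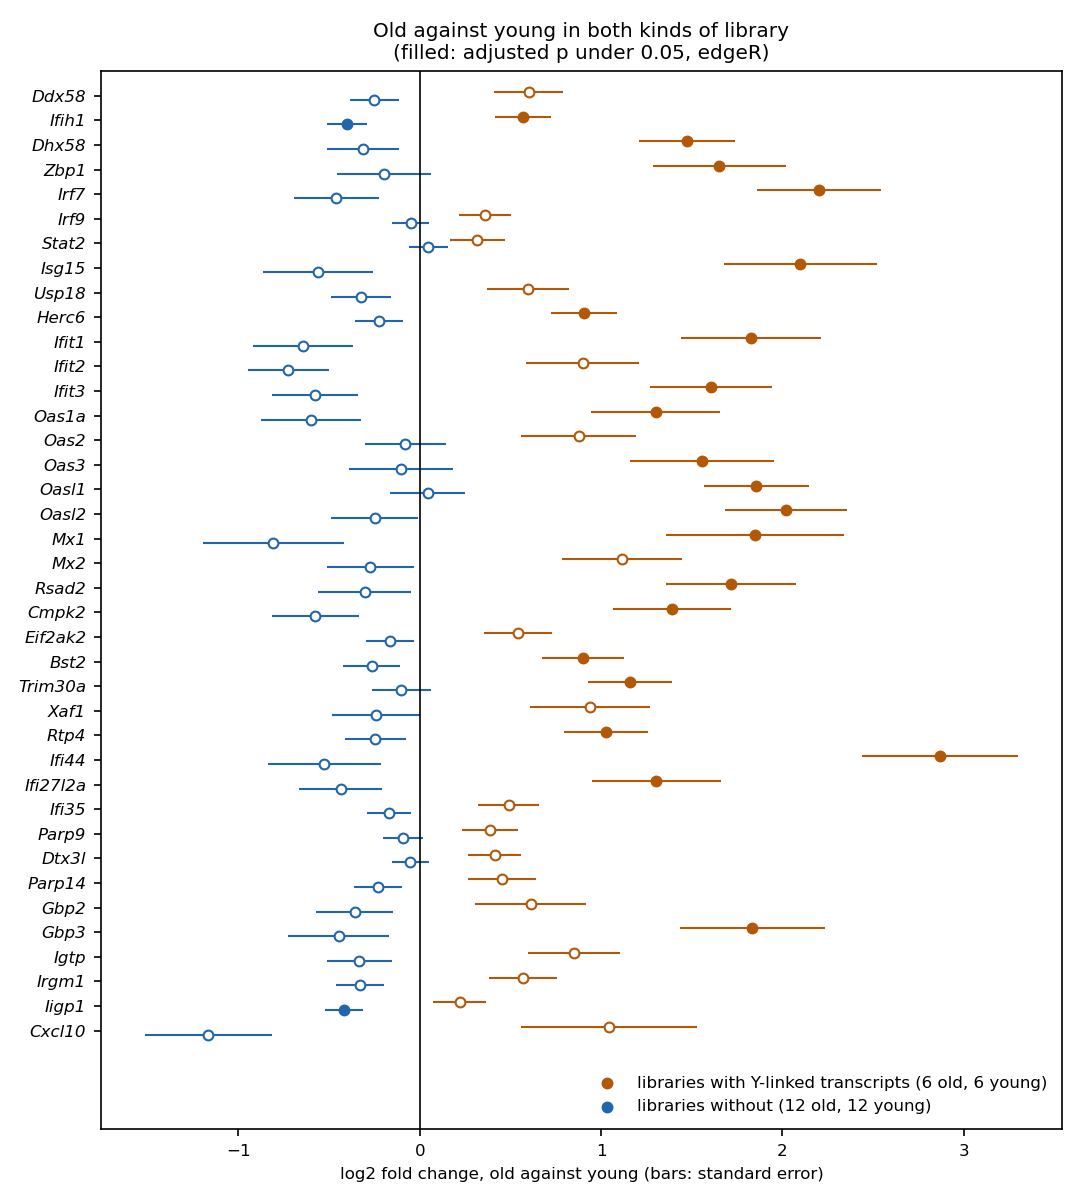
Log2 fold change of old against young livers for each of the 39 members, with its standard error, in Y+ libraries (orange, 6 old and 6 young) and in Y- libraries (blue, 12 old and 12 young). Filled points passed an adjusted p under 0.05 (21 in Y+ and 2 in Y- libraries), and all 39 orange points lie to the right of 0.

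The transcription factors come first. Irf7, a master regulator that amplifies type I interferon production, had the smallest p of the 39 between the kinds of old library. For this and each further gene shown in full, the value of the Y+ library of a group is marked Y+ and comes last. In young livers, Irf7 was found at 148, 155 and Y+ 125 CPM before, 38.6, 53.8 and Y+ 50.3 at 48, 58.1, 90.7 and Y+ 70 at 72, 132, 193 and Y+ 162 at 96, 201, 181 and Y+ 103 at 120, and 188, 152 and Y+ 98.6 at 240. In old livers, Irf7 was found at 189, 110 and Y+ 256 CPM before, 36.7, 69.3 and Y+ 76.2 at 48, 70.4, 47.3 and Y+ 512 at 72, 57.5, 56 and Y+ 748 at 96, 111, 44.9 and Y+ 647 at 120, and 183, 145 and Y+ 626 at 240. The old Y+ libraries at 72, 96, 120 and 240 held between 512 and 748 CPM, and no other library exceeded 256 CPM. Irf7 was higher in old than in young livers among Y+ libraries by a log2 value of 2.2 ± 0.34 (SE, adjusted p 0.000432, edgeR's test). Within old livers, Y+ exceeded Y- libraries by 2.35 ± 0.29 (adjusted p 1.82e-06). The difference between the age effects was 2.66 ± 0.42 (adjusted p 0.0025).

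Stat2 and Irf9 encode parts of the complex that binds the ISRE. In young livers, Stat2 was found at 100, 72.2 and Y+ 91.5 CPM before, 124, 110 and Y+ 135 at 48, 193, 110 and Y+ 168 at 72, 149, 148 and Y+ 110 at 96, 143, 129 and Y+ 105 at 120, and 116, 118 and Y+ 102 at 240. In old livers, Stat2 was found at 120, 85.3 and Y+ 109 CPM before, 86.3, 145 and Y+ 123 at 48, 147, 181 and Y+ 206 at 72, 139, 122 and Y+ 173 at 96, 175, 124 and Y+ 120 at 120, and 122, 112 and Y+ 159 at 240. Its groups overlapped between the ages at every time, and Stat2 was not called in any comparison of the ages or of the kinds of library (0.18 ± 0.13 for old Y+ against Y-, adjusted p 0.457). Against before, Stat2 rose at 72 in young livers (0.83 ± 0.22, SE, adjusted p 0.00844, edgeR) and in old livers (0.77 ± 0.21, adjusted p 0.0188). Irf9 ranged from 19.0 to 66.4 CPM and was higher in old Y+ than in old Y- libraries by 0.51 ± 0.12 (adjusted p 0.00838).

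Sensors of foreign nucleic acid were next. Ddx58 and Ifih1 encode RIG-I and MDA5, which detect viral RNA, Dhx58 encodes LGP2, their regulator, and Zbp1 binds left-handed double-stranded nucleic acid and can trigger cell death. In young livers, Zbp1 was found at 12.9, 7.51 and Y+ 7.28 CPM before, 8.82, 11.6 and Y+ 11.1 at 48, 14.9, 29.2 and Y+ 24.4 at 72, 14.8, 37.6 and Y+ 14.8 at 96, 24.8, 21.1 and Y+ 9.74 at 120, and 19.6, 13.9 and Y+ 7.04 at 240. In old livers, Zbp1 was found at 17.9, 6.84 and Y+ 20.9 CPM before, 6.68, 17.8 and Y+ 8.45 at 48, 15.2, 14 and Y+ 98.8 at 72, 19.2, 16.9 and Y+ 61.8 at 96, 20.6, 6.99 and Y+ 32.7 at 120, and 23.8, 12.5 and Y+ 35 at 240. The highest value, 98.8 CPM, was in the old Y+ library at 72. In young livers, Ifih1 was found at 104, 95.2 and Y+ 75.7 CPM before, 59.5, 64.2 and Y+ 56.4 at 48, 59.5, 85.8 and Y+ 79.7 at 72, 112, 116 and Y+ 106 at 96, 116, 110 and Y+ 107 at 120, and 116, 97.1 and Y+ 91.8 at 240. In old livers, Ifih1 was found at 87.1, 70.5 and Y+ 107 CPM before, 34.6, 61.6 and Y+ 56.2 at 48, 54.6, 67.2 and Y+ 195 at 72, 69.9, 72.8 and Y+ 144 at 96, 68, 69.5 and Y+ 136 at 120, and 104, 93.4 and Y+ 143 at 240. The old Y+ libraries from 72 on held 136 to 195 CPM of Ifih1, and no other library exceeded 116 CPM. Among Y- libraries Ifih1 was lower in old livers (log2 fold change -0.40 ± 0.11, SE, adjusted p 0.0313, edgeR), and among Y+ libraries it was higher by 0.57 ± 0.15 (adjusted p 0.0413). The call in Y- libraries was lost in 15 of the 36 fits without 1 library. Dhx58 was higher in old livers among Y+ libraries (1.47 ± 0.27, adjusted p 0.00202), and its old Y+ values of 92.9 CPM at 72 and 70.4 CPM at 96 exceeded all other libraries. In old livers all 4 sensors were higher in Y+ than in Y- libraries.

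The ISG15 system tags proteins much as ubiquitin does. Isg15 encodes the tag, Herc6 the main mouse ligase that attaches it, and Usp18 the protease that removes it and also damps receptor signalling. In young livers, Isg15 was found at 27.4, 33.9 and Y+ 13.3 CPM before, 13.9, 15.8 and Y+ 22.9 at 48, 17.4, 43.3 and Y+ 25.5 at 72, 36.9, 66.9 and Y+ 50 at 96, 36.5, 32.3 and Y+ 29 at 120, and 50.3, 30.8 and Y+ 20.8 at 240. In old livers, Isg15 was found at 32.8, 14.4 and Y+ 36.9 CPM before, 7.90, 27.8 and Y+ 16.4 at 48, 17.4, 18.3 and Y+ 344 at 72, 20.5, 19.7 and Y+ 195 at 96, 20.9, 17.3 and Y+ 132 at 120, and 28.3, 25.5 and Y+ 91.1 at 240. Isg15 reached 344 CPM in the old Y+ library at 72 and 195, 132 and 91.1 CPM in the old Y+ libraries at 96, 120 and 240, above every other library. In young livers, Usp18 was found at 10.4, 10.7 and Y+ 9.15 CPM before, 9.64, 9.31 and Y+ 7.15 at 48, 13.8, 9.72 and Y+ 10.4 at 72, 14.6, 12.4 and Y+ 16.2 at 96, 15.6, 15.1 and Y+ 16.4 at 120, and 17.3, 11.5 and Y+ 12.1 at 240. In old livers, Usp18 was found at 9.38, 5.93 and Y+ 11.5 CPM before, 5.27, 10 and Y+ 5.33 at 48, 7.80, 12.4 and Y+ 41.9 at 72, 11.8, 9.56 and Y+ 19.8 at 96, 11.9, 7.90 and Y+ 18.8 at 120, and 15.3, 13.6 and Y+ 19.1 at 240. Usp18 was at 41.9 CPM in the old Y+ library at 72, and elsewhere at most 19.8 CPM. In old livers all 3 genes were higher in Y+ libraries, Isg15 by 2.35 ± 0.36 (SE, adjusted p 6.76e-05, edgeR), Herc6 by 0.89 ± 0.15 (adjusted p 0.000282) and Usp18 by 0.83 ± 0.20 (adjusted p 0.00852).

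The IFIT proteins bind RNA with foreign ends and block its translation. In young livers, Ifit1 was found at 38.8, 40.4 and Y+ 23.5 CPM before, 11.3, 15 and Y+ 12.1 at 48, 15.9, 27.5 and Y+ 29.8 at 72, 53.6, 71.6 and Y+ 41.8 at 96, 58.4, 48.8 and Y+ 24 at 120, and 55.5, 45.2 and Y+ 31 at 240. In old livers, Ifit1 was found at 40.2, 23 and Y+ 60.1 CPM before, 5.47, 21.1 and Y+ 7.56 at 48, 16.6, 13.8 and Y+ 248 at 72, 16.5, 18.6 and Y+ 119 at 96, 17.6, 21.3 and Y+ 79.6 at 120, and 52.8, 46.9 and Y+ 148 at 240. For Ifit1 the old Y+ libraries from 72 on were above all others. In young livers, Ifit3 was found at 52.5, 54.5 and Y+ 34.5 CPM before, 18, 26.9 and Y+ 18.5 at 48, 27, 41.3 and Y+ 29.5 at 72, 82.3, 102 and Y+ 75.2 at 96, 83.9, 64.2 and Y+ 44 at 120, and 79.6, 57 and Y+ 30.7 at 240. In old livers, Ifit3 was found at 58.3, 37.4 and Y+ 68.1 CPM before, 6.89, 29.2 and Y+ 17.1 at 48, 23.2, 25.5 and Y+ 275 at 72, 34.1, 32.1 and Y+ 108 at 96, 37.8, 20.3 and Y+ 124 at 120, and 84.1, 58.4 and Y+ 172 at 240. Both genes were lowest at 48 in young livers, where the 3 libraries lay below the 3 before, and both were highest in the old Y+ library at 72. Among Y+ libraries Ifit3 was higher in old livers (log2 fold change 1.61 ± 0.34, SE, adjusted p 0.0083, edgeR) and so was Ifit1 (1.83 ± 0.39, adjusted p 0.00895). For Ifit2, with a value of 0.90 ± 0.31 (adjusted p 0.135), the difference was not called. The IFIT genes lie side by side on chromosome 19 and resemble each other, so their counts are uncertain where reads could match more than 1 of them.

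**Figure D3:**
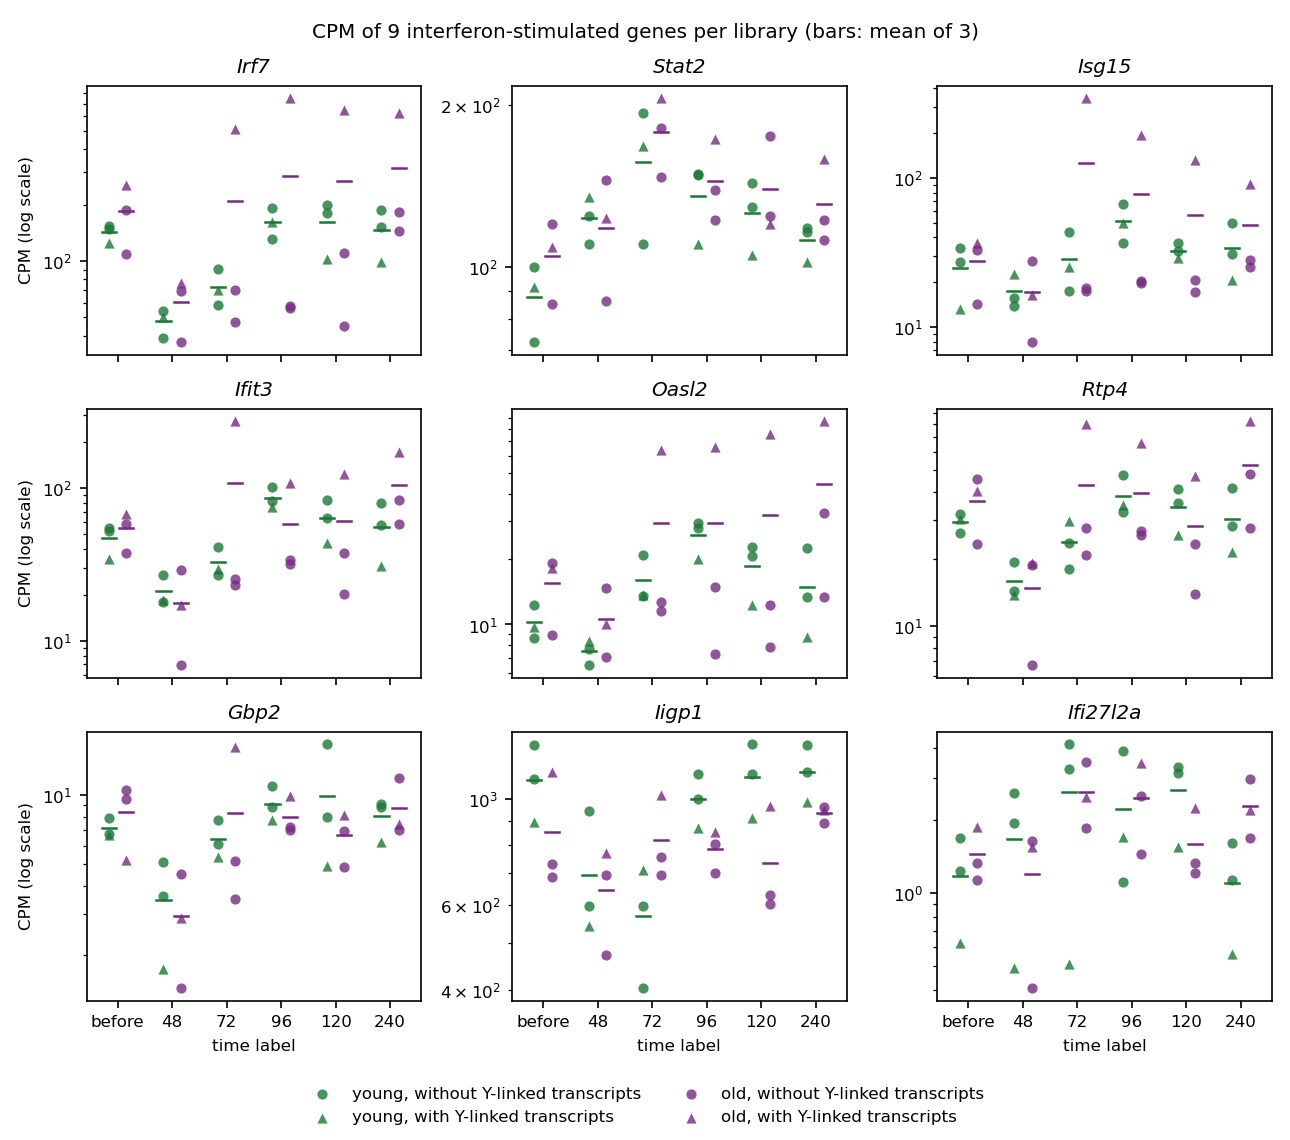
CPM (log axis) of 9 members in all 36 libraries by time label, for young (green) and old (purple) livers, with triangles for Y+ and circles for Y- libraries and bars for the mean of 3. From 72 on, the old triangles of Irf7, Isg15 and Oasl2 stand above all other points of their panel, whereas those of Iigp1 lie below the highest young points.

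OAS enzymes make short oligoadenylates that activate RNase L, and the OAS-like proteins lack this activity or serve other antiviral functions. In young livers, Oasl2 was found at 8.70, 12.3 and Y+ 9.78 CPM before, 7.68, 6.47 and Y+ 8.38 at 48, 13.6, 20.9 and Y+ 13.7 at 72, 28, 29.3 and Y+ 20 at 96, 22.8, 20.8 and Y+ 12.3 at 120, and 22.5, 13.4 and Y+ 8.73 at 240. In old livers, Oasl2 was found at 19.2, 8.90 and Y+ 18.3 CPM before, 7.09, 14.7 and Y+ 10 at 48, 12.7, 11.5 and Y+ 63.8 at 72, 14.9, 7.31 and Y+ 66.1 at 96, 12.3, 7.90 and Y+ 75.7 at 120, and 32.7, 13.4 and Y+ 86.7 at 240. The old Y+ libraries from 72 on held 63.8 to 86.7 CPM of Oasl2, and the highest of the others held 32.7 CPM. In young livers, Oas1a was found at 1.99, 0.969 and Y+ 1.87 CPM before, 0.980, 0.517 and Y+ 0.986 at 48, 2.68, 1.46 and Y+ 1.78 at 72, 2.51, 4.70 and Y+ 3.42 at 96, 4.26, 4.28 and Y+ 1.56 at 120, and 3.19, 2.14 and Y+ 1.13 at 240. In old livers, Oas1a was found at 0.894, 0.684 and Y+ 2.35 CPM before, 1.22, 1.43 and Y+ 0.445 at 48, 1.44, 1.64 and Y+ 6.51 at 72, 2.07, 0.844 and Y+ 6.87 at 96, 2.32, 0.911 and Y+ 6.75 at 120, and 3.06, 1.91 and Y+ 5.50 at 240. Oas1a was low throughout, at no more than 6.87 CPM, and in 4 members of the 39, Oas1a among them, at least 1 library had fewer than 3 counts. Among Y+ libraries, Oasl1 (1.86 ± 0.29, SE, adjusted p 0.000441), Oasl2 (2.02 ± 0.33, adjusted p 0.000804), Oas3 (1.56 ± 0.40, adjusted p 0.0325) and Oas1a (1.30 ± 0.36, adjusted p 0.0469) were higher in old livers. Oas2 had 0.88 ± 0.32 (adjusted p 0.157) and was not called. Oas1a has many near-identical copies on chromosome 5, and reads may be split among them.

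The MX GTPases trap viral capsids. Mx1 was at 57.2 CPM in the old Y+ library at 72, against 1.17 and 1.85 CPM in the Y- libraries of that group. At 25.3, 13.5 and 10.7 CPM, the old Y+ libraries at 240, 120 and 96 followed, and all others held at most 9.82 CPM. Mx1 differed by 1.85 ± 0.49 between the ages among Y+ libraries (SE, adjusted p 0.0386). Mx2, annotated as a polymorphic pseudogene, held 71.2 CPM in the old Y+ library at 72 and at most 35.2 CPM elsewhere. It was called higher at 72 than before in old livers (1.86 ± 0.56, adjusted p 0.0289), but without that library its value was 0.43 and it was not called.

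A further 7 members act against viruses by diverse means. Rsad2 encodes viperin, which makes a chain-terminating nucleotide, and Cmpk2, its neighbour on chromosome 12, encodes a mitochondrial nucleotide kinase. Rsad2 was at 288, 105, 81.4 and 109 CPM in the old Y+ libraries at 72, 96, 120 and 240, and at no more than 50 CPM in all others. Eif2ak2 encodes PKR, a kinase that halts translation on sensing double-stranded RNA. In young livers, Eif2ak2 was found at 62.4, 64.4 and Y+ 52.2 CPM before, 61, 59 and Y+ 88 at 48, 56.8, 76.8 and Y+ 65.7 at 72, 73.9, 98.7 and Y+ 81.1 at 96, 83, 71.1 and Y+ 51.2 at 120, and 85.5, 66.9 and Y+ 50.7 at 240. In old livers, Eif2ak2 was found at 64.1, 50.6 and Y+ 60.1 CPM before, 58.3, 67.5 and Y+ 47.1 at 48, 56, 70 and Y+ 184 at 72, 78, 64.4 and Y+ 116 at 96, 62.3, 55.3 and Y+ 76.1 at 120, and 68.8, 62.4 and Y+ 113 at 240. Only the old Y+ libraries at 72, 96 and 240 exceeded 100 CPM. Bst2 encodes tetherin, which holds budding virus at the cell surface. In young livers, Bst2 was found at 206, 210 and Y+ 191 CPM before, 178, 171 and Y+ 183 at 48, 176, 189 and Y+ 199 at 72, 196, 240 and Y+ 237 at 96, 236, 212 and Y+ 225 at 120, and 267, 195 and Y+ 222 at 240. In old livers, Bst2 was found at 204, 167 and Y+ 222 CPM before, 30.8, 144 and Y+ 140 at 48, 163, 204 and Y+ 387 at 72, 182, 187 and Y+ 685 at 96, 240, 175 and Y+ 672 at 120, and 232, 185 and Y+ 519 at 240. Bst2 had the highest level per length of the 39, a mean of 261 CPM per kilobase of exon, and its old Y+ libraries from 72 on held 387 to 685 CPM. Rtp4 encodes a chaperone that limits some viruses. In young livers, Rtp4 was found at 26.1, 31.7 and Y+ 30.2 CPM before, 14.4, 19.4 and Y+ 13.8 at 48, 18, 23.6 and Y+ 29.5 at 72, 32.5, 47.3 and Y+ 34.8 at 96, 41.1, 35.4 and Y+ 25.7 at 120, and 41.4, 28.1 and Y+ 21.4 at 240. In old livers, Rtp4 was found at 45.3, 23.3 and Y+ 40.1 CPM before, 6.68, 18.8 and Y+ 19.1 at 48, 20.9, 27.4 and Y+ 80.4 at 72, 26.7, 25.6 and Y+ 65.7 at 96, 23.2, 14 and Y+ 46.9 at 120, and 48, 27.6 and Y+ 82.5 at 240. Its old Y+ libraries at 72, 96 and 240 lay above all others, and that at 120 did not. In old livers all 7 genes of this group, which also holds Trim30a and Xaf1, were higher in Y+ than in Y- libraries, with a median log2 fold change of 1.09.

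Among the IFI genes, Ifi44 had the largest age difference of the 39 in Y+ libraries, a log2 fold change at 2.87 ± 0.43 (SE, adjusted p 0.000292, edgeR). Its old Y+ libraries held 26.5 CPM before and 6.67 CPM at 48, then 77.5 at 72, 121 at 96, 112 at 120 and 102 at 240, and no Y- library exceeded 28.9 CPM. The old Y+ values from 72 on therefore did not overlap with any other library. Ifi27l2a, a small mitochondrial protein, behaved differently. In young livers, Ifi27l2a was found at 1.24, 1.69 and Y+ 0.624 CPM before, 1.96, 2.59 and Y+ 0.493 at 48, 3.25, 4.13 and Y+ 0.509 at 72, 3.86, 1.11 and Y+ 1.71 at 96, 3.33, 3.14 and Y+ 1.56 at 120, and 1.14, 1.61 and Y+ 0.563 at 240. In old livers, Ifi27l2a was found at 1.34, 1.14 and Y+ 1.88 CPM before, 0.405, 1.64 and Y+ 1.56 at 48, 3.49, 1.87 and Y+ 2.49 at 72, 1.45, 2.53 and Y+ 3.44 at 96, 1.33, 1.21 and Y+ 2.25 at 120, and 1.70, 2.97 and Y+ 2.2 at 240. The Y+ library was the lowest of its young group at every time except 96. In old livers it was the highest of its group before, at 96 and at 120. At 48, 72 and 240 it lay between the other libraries of its group. Ifi27l2a was lower in young Y+ than in young Y- libraries (log2 fold change -1.36 ± 0.31, SE, adjusted p 0.0139), the only member called in that comparison, where 1.72% of all genes were called. The call rests on few reads: 3, 2, 2, 9, 8 and 2 in the young Y+ libraries from before to 240, and 4 to 23 in the young Y- libraries. Without the young Y+ library at 48 or that at 72, the values were -1.25 and -1.12 and the call was lost. Ifi35 was higher in old Y+ than in old Y- libraries by 0.77 ± 0.14 (adjusted p 0.000692).

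Parp9 and Dtx3l encode a complex that modifies histones, and Parp14 encodes an ADP-ribosyltransferase. In young livers, Parp14 was found at 218, 252 and Y+ 228 CPM before, 171, 211 and Y+ 185 at 48, 225, 310 and Y+ 263 at 72, 338, 416 and Y+ 353 at 96, 383, 307 and Y+ 233 at 120, and 364, 275 and Y+ 220 at 240. In old livers, Parp14 was found at 286, 217 and Y+ 213 CPM before, 103, 221 and Y+ 151 at 48, 229, 264 and Y+ 639 at 72, 245, 250 and Y+ 386 at 96, 263, 195 and Y+ 293 at 120, and 357, 291 and Y+ 496 at 240. The highest value was in the old Y+ library at 72, but the old Y+ library before was the lowest of its group. Parp14 was not called between the kinds of old library (0.47 ± 0.16, adjusted p 0.0717), nor was Dtx3l (0.38 ± 0.12, adjusted p 0.0623), whereas Parp9 was higher (0.46 ± 0.13, adjusted p 0.0333). Parp9 and Dtx3l overlap on opposite strands of chromosome 16, and since the use of strand in counting was not stated, their reads cannot be told apart there.

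The GBP and IRG GTPases attack vacuoles that hold microbes and are known mainly as targets of type II interferon. In young livers, Gbp2 was found at 7.96, 6.78 and Y+ 6.66 CPM before, 5.07, 3.62 and Y+ 1.72 at 48, 6.12, 7.78 and Y+ 5.34 at 72, 10.9, 8.85 and Y+ 7.79 at 96, 16.7, 7.99 and Y+ 4.87 at 120, and 8.87, 9.10 and Y+ 6.20 at 240. In old livers, Gbp2 was found at 10.5, 9.58 and Y+ 5.17 CPM before, 1.42, 4.50 and Y+ 2.89 at 48, 3.49, 5.15 and Y+ 16.3 at 72, 7.24, 7.03 and Y+ 9.88 at 96, 6.96, 4.86 and Y+ 8.19 at 120, and 11.9, 7.01 and Y+ 7.48 at 240. The old Y+ library at 72 and a young Y- library at 120 were the highest for Gbp2, so that the ages overlapped. In young livers, Igtp was found at 104, 83.1 and Y+ 66.8 CPM before, 66.3, 63.1 and Y+ 57.2 at 48, 44.2, 92.1 and Y+ 89.1 at 72, 92.2, 107 and Y+ 68.2 at 96, 148, 108 and Y+ 58.6 at 120, and 122, 98.2 and Y+ 58 at 240. In old livers, Igtp was found at 131, 59.3 and Y+ 83.6 CPM before, 28.2, 71.4 and Y+ 56.7 at 48, 75.5, 79.8 and Y+ 230 at 72, 73, 67.8 and Y+ 166 at 96, 63, 46.2 and Y+ 83.3 at 120, and 122, 83.9 and Y+ 167 at 240. The old Y+ libraries at 72, 96 and 240 exceeded all others for Igtp, and those before, at 48 and at 120 did not. In young livers, Iigp1 was found at 1097, 1294 and Y+ 894 CPM before, 597, 943 and Y+ 543 at 48, 402, 598 and Y+ 711 at 72, 997, 1126 and Y+ 868 at 96, 1298, 1125 and Y+ 909 at 120, and 1134, 1291 and Y+ 982 at 240. In old livers, Iigp1 was found at 730, 686 and Y+ 1138 CPM before, 471, 694 and Y+ 770 at 48, 693, 754 and Y+ 1015 at 72, 700, 805 and Y+ 850 at 96, 631, 602 and Y+ 967 at 120, and 890, 962 and Y+ 948 at 240. Its highest values were in young Y- libraries. Iigp1 was the most abundant member in CPM, with a mean of 864 CPM. It was higher in old Y+ than in old Y- libraries by 0.41 ± 0.12 (SE, adjusted p 0.0417, edgeR). Among Y- libraries Iigp1 was lower in old livers (log2 fold change -0.42 ± 0.10, SE, adjusted p 0.0188, edgeR), a call lost under 2 of 42 alternatives, 1 of them the fit without the libraries before (-0.34, adjusted p 0.124). Gbp3 was higher in old livers among Y+ libraries (1.83 ± 0.40, adjusted p 0.011), while Gbp2 (0.61 ± 0.31, adjusted p 0.347), Igtp (0.85 ± 0.25, adjusted p 0.0728) and Irgm1 (0.57 ± 0.19, adjusted p 0.11) were not called. The GBP genes of chromosome 3 are close copies of each other, with the same uncertainty of counts as the IFIT genes.

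Cxcl10, the chemokine that draws T cells and NK cells to sites of interferon action, was low. In young livers, Cxcl10 was found at 2.74, 3.15 and Y+ 2.29 CPM before, 4.09, 3.62 and Y+ 1.72 at 48, 3.63, 11.7 and Y+ 2.29 at 72, 4.02, 3.87 and Y+ 3.42 at 96, 7.97, 2.85 and Y+ 1.36 at 120, and 6.37, 1.87 and Y+ 3.38 at 240. In old livers, Cxcl10 was found at 5.58, 2.51 and Y+ 3.05 CPM before, 0.203, 1.02 and Y+ 0.889 at 48, 1.64, 1.40 and Y+ 21.1 at 72, 2.27, 2.25 and Y+ 4.29 at 96, 2.32, 1.52 and Y+ 3.07 at 120, and 5.79, 1.91 and Y+ 6.82 at 240. It stood at 21.1 CPM in the old Y+ library at 72 and at 11.7 CPM in a young Y- library at 72, and its spread left no call between the kinds of old library (1.29 ± 0.42, adjusted p 0.0591).

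Within old livers, 32 of the 39 members were higher in Y+ than in Y- libraries and 0 were lower, while 7.03% of all genes were called. The members were chosen with earlier results of these data known, so this count is not independent evidence either. The 7 not called were Stat2, Oas2, Ifi27l2a, Dtx3l, Parp14, Gbp2 and Cxcl10. The members of smallest p were Irf7, Dhx58 (1.74 ± 0.23, SE, adjusted p 4.35e-06, edgeR), Ifi44 (2.58 ± 0.35, adjusted p 7.64e-06), Oasl1 (1.59 ± 0.24, adjusted p 4.68e-05) and Oasl2 (1.82 ± 0.28, adjusted p 4.7e-05). Within young livers only Ifi27l2a was called, and 36 of the 39 were negative with a median of -0.29. Without the old Y+ library at 72, the count in old livers fell from 32 to 20. The 17 members with an ISRE match in the window had a median log2 fold change of 1.04 between old Y+ and Y- libraries, the 11 with a window but no match 1.13, and the 11 without a window 0.83.

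**Figure D4:**
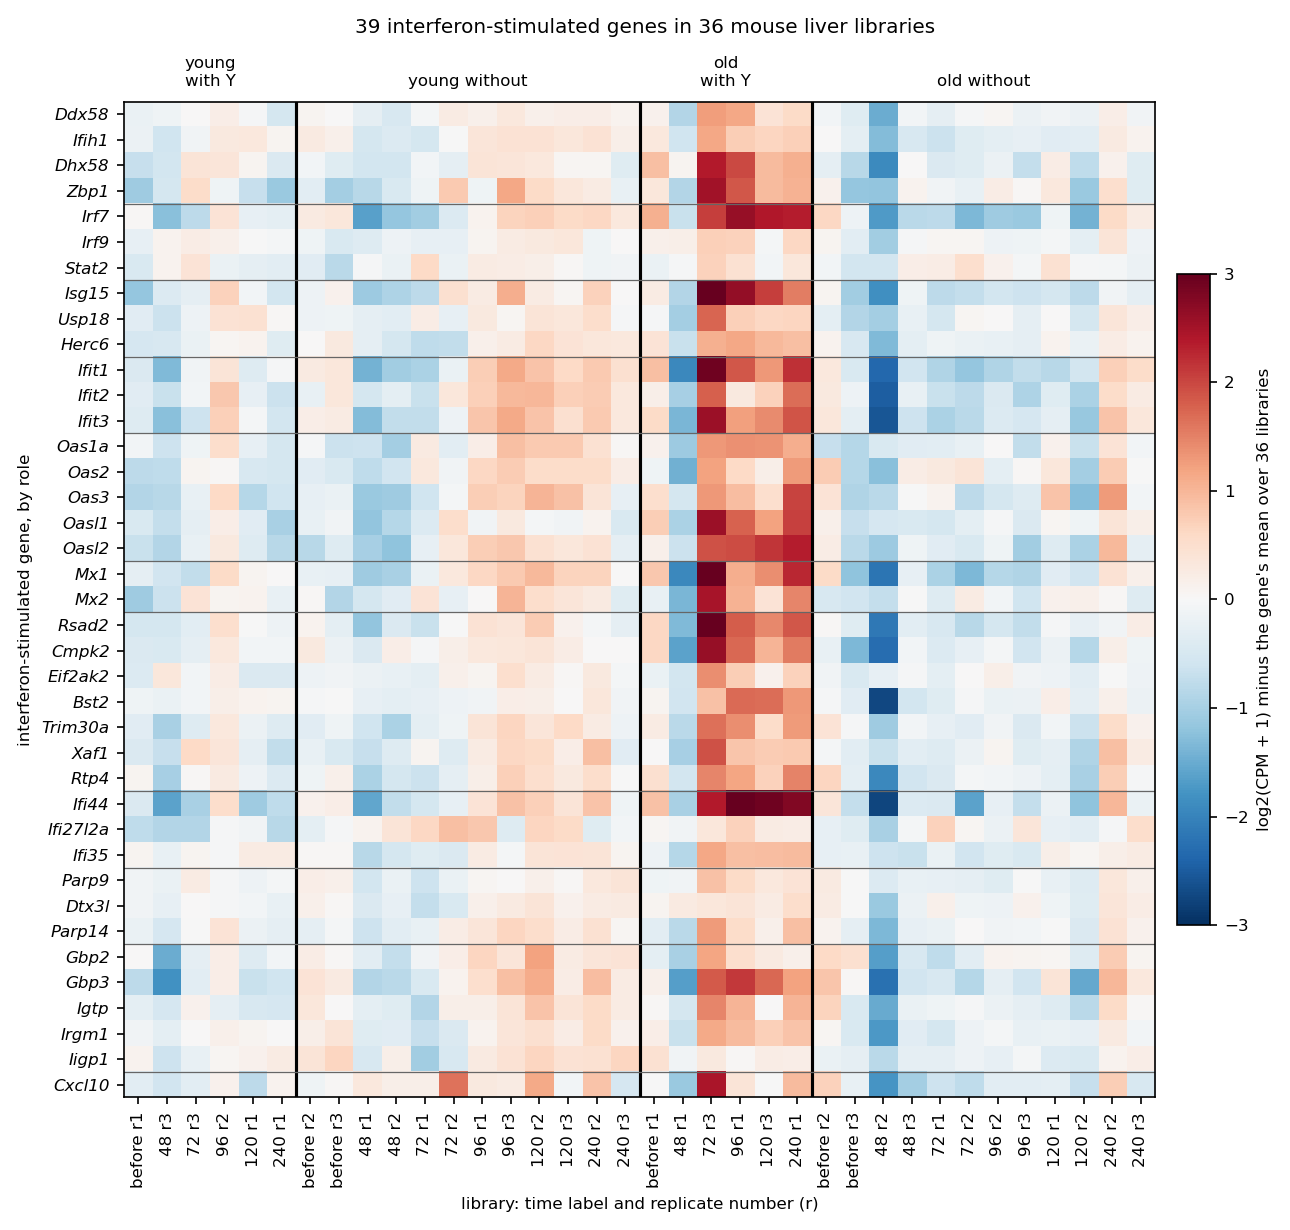
Log2(CPM + 1) of the 39 members in each of the 36 libraries, relative to each gene's mean over the libraries (red above, blue below), with genes in rows by role and libraries in columns by age, kind and time label. The 4 old Y+ columns from 72 to 240 are red over most rows, and the column of the old Y- library of replicate 2 at 48 is blue over most rows.

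This contrast was not equally large at all times, although the test assumed it constant. In each old group the Y+ library was set against the mean of the other 2, on the log2(CPM + 1) scale and with no test, since each group has a single Y+ library. Before, the median log2 ratio of the 39 was 0.35, with 2 members at least 2-fold higher (3.43% of all genes). At 48 the median was -0.10, and 0 members were 2-fold higher (2.05% of all genes). At 72 the median was 1.70 and 33 members were 2-fold higher (3.01% of all genes), led by Mx1 with a log2 ratio of 4.54. At 96 the median was 1.30 with 25 members (2.46%), at 120 it was 0.98 with 19 (2.75%), and at 240 it was 0.87 with 16 (3.48%). Before, 31 of the 39 ratios were positive, and Dhx58, with 1.44, stood higher than at 120 (1.13) and 240 (1.17). These ratios come from single libraries. In young groups the median ranged from -0.58 at 240 to -0.02 at 72, and no member was 2-fold higher at any time (0.863% to 1.86% of all genes). At least 2-fold lower were 11 members at 120 (2.59% of all genes), 6 at 240 (3.07%) and 2 before (1.82%). The counts were 2 at 72 (5.2%), 1 at 48 (2.26%) and 0 at 96 (1.32%). Among old groups, 3 members were 2-fold lower at 48 (5.34%) and none at the other times. Of the 39 members, 25 had their highest value of all 36 libraries in the old Y+ library at 72, 6 in that at 96 and 5 in that at 240. The other 3 were Gbp2 and Iigp1, highest in a young Y- library at 120, and Ifi27l2a, highest in a young Y- library at 72.

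**Figure D5:**
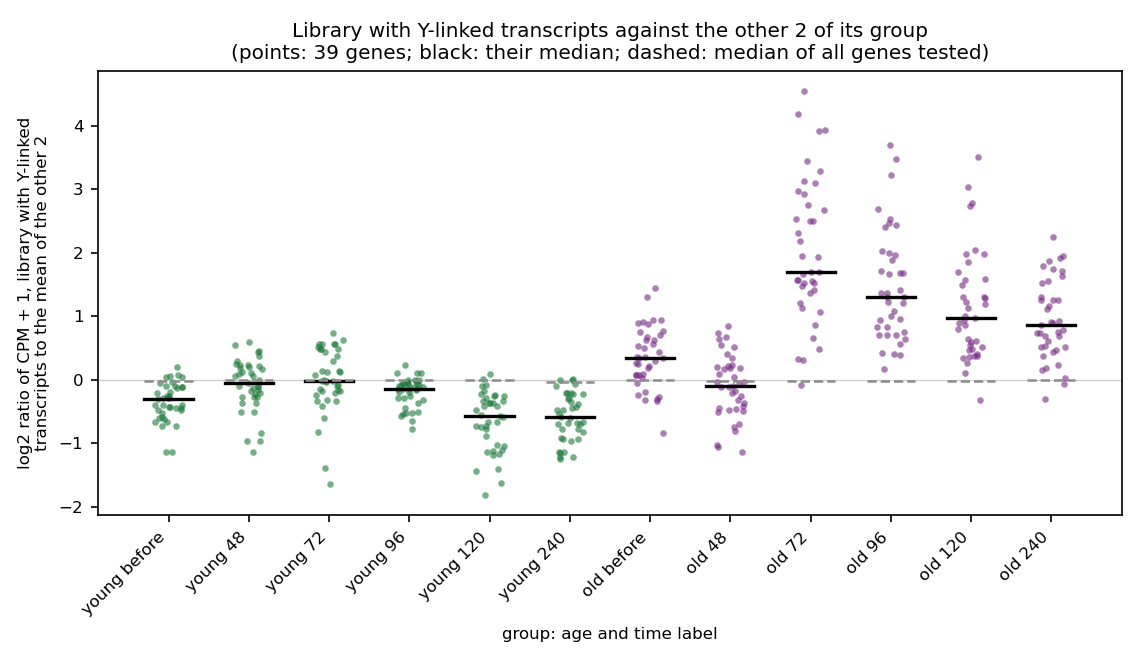
Log2 ratio of CPM + 1 between the Y+ library and the mean of the other 2 libraries of its group, for the 39 members (points), with their median (black line) and the median of all genes tested (dashed line). The medians of old groups are 0.35 before and -0.10 at 48, then 1.70 at 72, 1.30 at 96, 0.98 at 120 and 0.87 at 240, and those of young groups lie at or below -0.02.

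Other genes of the pathway were read in the same comparison, from lists chosen by role with earlier results of these data known. Of the 5 ligand genes in the tables only Ifnk passed the filter, with 823 reads over all 36 libraries and 1.96 to 8.90 CPM. Transcripts of the others were nearly absent: Ifnb1 had 2 reads over all 36 libraries and Ifng 12. Further ligand genes of the list were missing from the tables, so their transcripts could not be read. Of 16 tested genes for the sensing steps upstream of interferon (Toll-like receptors, cGAS, adaptors such as Mavs, kinases such as Tbk1, and Irf3 and Irf5), 0 were called between old Y+ and old Y- libraries, where 7.03% of all genes were. Of 7 other interferon regulatory factors and brakes only Irf2 was higher (0.47 ± 0.10, SE, adjusted p 0.00288, edgeR), and Irf1 had -0.14 ± 0.17 (adjusted p 0.689). Genes of class I antigen presentation, which load peptides for T cells, were higher for 5 of 13, among them Psme1 (0.62 ± 0.11, adjusted p 0.000454), Tap1 (0.65 ± 0.14, adjusted p 0.00431) and Psmb8 (0.66 ± 0.17, adjusted p 0.015). Of 56 further interferon-stimulated genes tested, 22 were higher and 0 lower, against the same 7.03% of all genes, with Lgals3bp (1.13 ± 0.13, adjusted p 8e-07), Ifitm3 (0.84 ± 0.10, adjusted p 2.09e-06) and Oas1c (1.82 ± 0.30, adjusted p 0.000152) at the smallest p. In the test of the difference between the age effects, 7 of these 56 passed, against 0.35% of all genes, with Ifitm3 (0.87 ± 0.15, adjusted p 0.00729), Slfn1 (2.49 ± 0.46, adjusted p 0.0139) and Lgals3bp (1.00 ± 0.19, adjusted p 0.0141) at the smallest p.

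Markers of other liver and immune cells were read beside this contrast. In bulk tissue, fewer cells of a type and less RNA per cell cannot be told apart. Summed CPM of 11 Kupffer cell and macrophage markers ranged from 604 to 1635 in old Y+ and from 247 to 1358 in old Y- libraries. Of the dendritic markers 3 were tested, of the T and NK markers 2 and of the monocyte markers 6, the others being too low. The 8 dendritic cell markers, Siglech of plasmacytoid cells among them, ranged from 13.6 to 29.3 CPM and from 17 to 40.2 CPM. The 13 T and NK cell markers ranged from 5.56 to 14.3 CPM and from 5.06 to 15.2 CPM, and the 8 monocyte markers from 72.2 to 169 CPM and from 45.9 to 138 CPM. These ranges overlapped, but they pool 6 time points. None of the Kupffer, monocyte, dendritic, T and NK, B, neutrophil or hepatocyte markers was called between the kinds of old library. At 240 the old Y+ library held the highest sum of its group for Kupffer (1635 CPM), monocyte (169) and dendritic markers (26.4). So it did for T and NK (11.9), B (31.5) and neutrophil markers (37.0). At 72 the old Y+ library was highest for monocyte (84.2 CPM) and lowest for dendritic (14.9), B (4.98) and neutrophil markers (12.3). The part of these sums in the result was not tested. The called markers were Sox9 of cholangiocytes, higher (1.19 ± 0.26, SE, adjusted p 0.0044, edgeR), Stab2 of sinusoidal endothelium, lower (-0.59 ± 0.11, adjusted p 0.000454), and Hgf (-0.74 ± 0.16, adjusted p 0.00329) and Reln (-0.53 ± 0.15, adjusted p 0.0242) of stellate cells, both lower. No other marker of these lists was called, where 7.03% of all genes were. The 7 cholangiocyte markers summed to 48.5 to 69.5 CPM in old Y+ and 31.2 to 217 CPM in old Y- libraries. The sums were 383 to 496 and 383 to 670 CPM for 10 endothelial markers. For 10 stellate markers they were 253 to 596 and 362 to 511 CPM, so these ranges overlapped too. The part of these markers in the result was not tested.

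The age comparison was also made at each time point, with 3 old against 3 young libraries. None of the 39 was called at any of them. Of all genes, 0.0595% were called before and 11.4% at 48. The share was 0% at 72, 0.402% at 96, 0.0819% at 120 and 0.0149% at 240. At 72, where edgeR called 0 genes, 668 genes and 14 of the 39 members had an unadjusted p under 0.05, and DESeq2 called 16 genes and 0 members. The members' median log2 fold change was 0.24 before and -0.16 at 48. It was 0.81 at 72, the largest of the 6 times, 0.02 at 96, -0.11 at 120 and 0.60 at 240. Rsad2 had 2.22 ± 0.77 (SE, adjusted p 0.647) and Mx1 2.34 ± 0.93 (adjusted p 0.854) at 72. Both values turned negative, to -0.35 and -1.37, without the old Y+ library of that group. At 48, Cxcl10 had -2.15 ± 0.96 (adjusted p 0.153) and Bst2 -0.76 ± 0.49 (adjusted p 0.348). With terms for the kind of library in each age, a fit added after the data had been seen, both were called lower in old Y- livers at 48 (Cxcl10 -2.88 ± 0.84, adjusted p 0.022, and Bst2 -1.17 ± 0.33, adjusted p 0.0186). That fit assumes a Y+ difference constant over time, which the old groups did not show: the members' median log2 ratio of Y+ to Y- libraries was -0.10 at 48 and 1.70 at 72. Under it the members' median age difference at 48 was -0.53 in Y- libraries, against -0.16 for all libraries. The calls at 48 from this fit rest on that assumption. The lowest value of both was in a single old library at 48, replicate 2, with 0.203 CPM of Cxcl10 (1 read) and 30.8 CPM of Bst2. That library also held the lowest sum of Kupffer cell and macrophage markers of all 36, at 247 CPM, whose part in the result was not tested.

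At the other time points the members of smallest p were Iigp1 (-0.36 ± 0.25, SE, adjusted p 0.851) and Oas2 (0.68 ± 0.49, adjusted p 0.861) before, and Ifit2 (-1.15 ± 0.58, adjusted p 0.393) and Iigp1 (-0.34 ± 0.25, adjusted p 0.593) at 96, by edgeR. They were Iigp1 (-0.60 ± 0.25, adjusted p 0.386) and Igtp (-0.71 ± 0.44, adjusted p 0.625) at 120, and Oas3 (1.58 ± 0.63, adjusted p 0.88) and Oasl1 (1.55 ± 0.64, adjusted p 0.911) at 240. A single test of the interaction of age and time called 2.91% of all genes and 0 of the 39. Its smallest p among members was that of Iigp1 (adjusted p 0.37), followed by Ifit2 (adjusted p 0.537).

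The course of regeneration was then compared with before within each age. The 5 comparisons of an age share the 3 libraries before. In young livers 0 members were called at 48 (22.1% of all genes called), 2 at 72 (17.5%), 0 at 96 (1.44%), 0 at 120 (0.595%) and 0 at 240 (0.26%). In old livers 1 member was called at 48 (24.3% of all genes), 3 at 72 (12.6%), 0 at 96 (6.85%), 0 at 120 (4.05%) and 0 at 240 (0.141%). In every one of these comparisons the share of members called was below that of all genes.

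At 48 the levels of most members were below those before. In young livers 32 of 39 were negative with a median of -0.45 on the log2 scale, and in old livers 38 of 39 with a median of -0.77. The smallest p in young livers were those of Iigp1 (-0.66 ± 0.25, SE, adjusted p 0.0557, edgeR) and Stat2 (0.48 ± 0.22, adjusted p 0.111). In the fit over all 36 libraries the only one called was Gbp2 in old livers (-1.51 ± 0.49, SE, adjusted p 0.0242, edgeR), where its values at 48 (1.42, 2.89 and 4.50 CPM) lay below those before (5.17, 9.58 and 10.5 CPM). The call was lost in the fit of only the 6 libraries compared (-1.49, adjusted p 0.124) and without old replicate 2 or 3 before, or old replicate 1 or 2 at 48 (-1.15 to -1.5). Irf7 illustrates the young course: its 3 values at 48 (38.6 to 53.8 CPM) lay below the 3 before (125 to 155 CPM). Its log2 fold change was -1.59 ± 0.86 (adjusted p 0.198) in the fit over 36 libraries, whose spread includes the old Y+ libraries, and -1.59 ± 0.17 (adjusted p 7.84e-05) in a fit of the 6 libraries compared.

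That fit of 6 young libraries called 12 members at 48, 11 lower and Stat2 higher. This share was near that of all genes (26.5% called). Irf7, Ifit1 (-1.42 ± 0.23, SE, adjusted p 0.00149, edgeR), Ifit3 (-1.16 ± 0.23, adjusted p 0.00394) and Rtp4 (-0.89 ± 0.19, adjusted p 0.00589) had the smallest p among them. In old livers, the fit with terms for the kind of library in each age, added after the data had been seen, called 11 members lower at 48. This share too was near that of all genes (27.2% called), and the fit makes the same assumption of a constant Y+ difference. The smallest p there were those of Rtp4 (-1.35 ± 0.34, adjusted p 0.00479), Ifih1 (-0.77 ± 0.22, adjusted p 0.01) and Gbp2 (-1.54 ± 0.45, adjusted p 0.0121). In the 36-library fit without these terms, 24.3% of all genes were called, and the shares of the lists below are to be read against it. Old livers at 48 showed 5 of 13 class I genes lower, among them Psmb10 (-1.33 ± 0.22, adjusted p 0.00012), Erap1 (-0.95 ± 0.21, adjusted p 0.00227) and H2-K1 (-0.76 ± 0.19, adjusted p 0.00498). Of the 56 further interferon-stimulated genes, 14 were lower and 2 higher, a share near that of all genes, with Epsti1 (-1.55 ± 0.33, adjusted p 0.00143), Gbp8 (-1.82 ± 0.40, adjusted p 0.00198) and Gbp7 (-1.53 ± 0.37, adjusted p 0.0042) the lowest in p. At the same time 5 of 11 Kupffer cell and macrophage markers were lower, among them Csf1r (-1.28 ± 0.29, adjusted p 0.00231) and Adgre1 (-1.60 ± 0.39, adjusted p 0.00385). The summed macrophage markers were 934 to 1358 CPM in old livers before and 247 to 988 CPM at 48, and 693 to 865 CPM and 653 to 848 CPM in young livers. Their part in the result was not tested.

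At 72, Stat2 was higher and Iigp1 lower than before in young livers (Iigp1 -0.94 ± 0.25, SE, adjusted p 0.00986, edgeR). Both calls were lost without young replicate 3 before (0.72 for Stat2 and -0.79 for Iigp1) and without young replicate 1 at 72 (0.66 and -0.74). In old livers Stat2, Mx2 and Usp18 (1.22 ± 0.40, adjusted p 0.0443) were higher at 72. Without the old Y+ library at 72 the values were 0.65 for Stat2, 0.43 for Mx2 and 0.17 for Usp18, and none of the 3 was called. Without old replicate 3 before, 0 members were called at 72, and without old replicate 2 before, 1.

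From 96 on, 37 of 39 members were above before in young livers by fitted value, with a median of 0.53 at 96, 0.44 at 120 (38 positive) and 0.20 at 240 (36 positive). None was called in the fit over 36 libraries. At 96 the smallest p were those of Stat2 (0.62 ± 0.22, SE, adjusted p 0.146, edgeR) and Oas2 (1.14 ± 0.48, adjusted p 0.244). The fit of only the 6 young libraries called 7 members higher at 96 (3.94% of all genes called), which were Ifit2, Ifit3, Oas3, Oasl2, Mx1, Trim30a and Parp14. Oasl2 had the smallest p of these (1.32 ± 0.21, adjusted p 0.0124), with 20 to 29.3 CPM at 96 against 8.70 to 12.3 CPM before. At 120 the smallest p were those of Stat2 (0.52 ± 0.22, adjusted p 0.319) and Irf9 (0.50 ± 0.26, adjusted p 0.443). At 240 they were those of Stat2 (0.35 ± 0.22, adjusted p 1) and Oas2 (0.76 ± 0.49, adjusted p 1).

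In old livers the medians after 72 were 0.36 at 96, 0.20 at 120 and 0.68 at 240, where 39 of 39 fitted values were positive and 0 were called. The smallest p were those of Stat2 (0.47 ± 0.21, SE, adjusted p 0.196, edgeR) and Eif2ak2 (0.56 ± 0.31, adjusted p 0.298) at 96, and of Oas1a (1.42 ± 0.71, adjusted p 0.275) and Ifi35 (0.65 ± 0.33, adjusted p 0.284) at 120. At 240 they were those of Parp14 (0.68 ± 0.30, adjusted p 0.58) and Oas3 (1.33 ± 0.61, adjusted p 0.602). On the log2(CPM + 1) scale, the old Y+ library was at least 2-fold above the mean of its group's other 2 libraries for many members. These were 25 members at 96 (2.46% of all genes), 19 at 120 (2.75%) and 16 at 240 (3.48%), and the other members lay within 2-fold. For Irf7 at 96 the 3 libraries held 57.5, 56.0 and Y+ 748 CPM, so that the group mean described none of them. With scaling by total counts alone in place of TMM, the median of all genes against before went from -0.0106 to 0.0949 in young livers at 48, from 0.0145 to 0.211 at 72, from 0.0147 to 0.127 at 96 and from 0.0121 to 0.103 at 120. In old livers at 72 it went from -0.00608 to 0.111. The members' medians under that scaling are to be read against these shifts.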

How the data were processed

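Total RNA of frozen mouse livers was extracted with Trizol and columns, treated with DNase and depleted of ribosomal RNA before sequencing, per the labels' protocols. The deposited files hold raw counts per gene symbol, made by the authors, as whole numbers. The submitters' processing notes name bcl2fastq 2.20.0, Trimmomatic 0.39, FastQC 0.11.9, STAR 2.7.5b, SAMtools 1.10, Picard 2.20.8, deepTools and featureCounts with the builds GRCm38 and mm10. The annotation, the use of strand and the filters were not given in the sources used here. Spike-in mixes differing between the ages are named in the labels, and 0 spike-in rows are in the tables, so scaling used the genes alone.

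Counts were analysed with edgeR 4.0.16 in R 4.3.3: TMM scaling (factors 0.9299 to 1.133), filterByExpr over the 12 groups, a quasi-likelihood F test over all 36 libraries with 1 mean per group, and Benjamini-Hochberg adjustment over the 13436 genes tested, with a threshold of 0.05. Comparisons by Y-linked transcripts added a term for Y+ libraries (summed CPM of the Y-linked genes above 10) in each age, assumed constant over time. These terms lowered the biological coefficient of variation from 24.7% to 20.9%. CPM and fold changes are computed values. The scripts were tested on simulated data. DESeq2 1.42.0, other scalings, no filter, fewer libraries and a replicate block were the alternatives. Promoter windows came from RefSeq (GRCm38.p6), matched by symbol, and gene positions from the GENCODE annotation of GRCm38. All samples have a group and none was left out.

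The members, the lists and the split by Y-linked transcripts were chosen with earlier results of these data known. Every library's value is given for representatives of each role except the MX GTPases, whatever their result. For each comparison the 5 called members of smallest p are named, or the 2 of smallest p where none was called. The list of receptors and their signalling proteins is not reported here.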

Additional observations from a re-analysis of the deposited data

Results flagged for a closer look

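The age difference of the 39 genes differed between the 2 kinds of library by a direct test of that difference: 15 members passed (edgeR, adjusted p under 0.05). The count was 24 with DESeq2, 23 with no filter on low counts and 6 with only the 5 later time points, and leaving out 1 library gave 6 to 26. It was largest for Ifi44, whose age effect was 3.40 higher on the log2 scale in Y+ than in Y- libraries. The same difference was 2.66 for Irf7, 2.27 for Oasl2, 1.79 for Dhx58 and 2.18 for Ifit3. Each rests on 6 Y+ libraries of each age, 1 per group, and on the assumption of a Y+ difference constant over time.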

How the results depend on the processing

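The number of members called moved by over 1.5 times as follows. With DESeq2 it was 1 for the mean age difference, 1 for young at 48, 3 for old at 48, 4 for age in Y- libraries and 24 for the difference between the age effects. With no filter on low counts it was 4 and 23 for the last 2, and with total-count scaling 1 for age in Y- libraries. With the term for Y+ libraries it was 2 for old at 48. With terms in each age, added after the data were seen, the age differences are those of Y- libraries alone. Ifi44 was then at -0.53 in the mean age difference, against 1.06 for all libraries. The number called was 2 for the mean age difference, which restates age in Y- libraries, and 2 for age at 48. For young and old at 48 the number was 3 and 11. With only the 5 later time points it was 1 for age in Y- libraries, 0 for the kinds of young library and 6 for the difference between the age effects. In fits of only the 6 libraries compared it was 12, 4 and 7 for young at 48, 72 and 96, and 0 and 1 for old at 48 and 72.

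With a replicate block nested in age it was 1 for young at 48, 5 for old at 48, 1 for old at 72, 0 for age in Y- libraries and 8 for the difference between the age effects, against 15 for age in Y+ libraries and 28 for the kinds of old library. Iigp1 in Y- libraries was then at -0.23 (adjusted p 0.604). The numbers were not taken to pair the samples, since not every same-numbered pair correlated above 0.1. Mean correlations within an age were -0.00991 to 0.15. Between the ages they were 0.38, 0.23 and 0.24 at 240 and 0.41, 0.254 and 0.0961 before, and from -0.3 to 0.27 at the other times. At 240 and before, number 1 is the Y+ library of both ages. At 72 number 3 is, and that pair correlated at 0.107. No fit blocked by number across the ages.

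Leaving out 1 library gave 6 to 26 members for the difference between the age effects, 12 to 28 for age in Y+ libraries, 1 to 12 for age in Y- libraries, 20 to 35 for the kinds of old library, 0 to 1 for the kinds of young library, the mean age difference and young at 48, 0 to 3 for young at 72, 0 to 6 for old at 48 and 0 to 4 for old at 72. In the age difference at 72, Rsad2 ranged from -0.35 to 2.73 and Mx1 from -1.37 to 2.89, both lowest without old replicate 3. Except where its construction shows it (fewer samples or genes), the cause was not tested. Depth limits Mx1, Cxcl10, Oas1a and Ifi27l2a, with under 3 counts in at least 1 library.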
